A study of Mus musculus with 8 samples.

Results

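Ion channels that have been studied in microglial surveillance and activation were followed in the mouse forebrain after microglia had been depleted. The 10 genes, Kcnk13, Kcnk6, Kcna3, Kcnn4, Kcnj2, Hvcn1, Trpm2, Trpv2, Trpv4 and Clic1, were picked by symbol from the 53278 symbols of the count table, and all 10 were present and had enough counts to be tested. The data were bulk RNA sequencing libraries of total RNA from the whole forebrain of 8 C57BL/6J mice, all male and 10 to 20 weeks old. The control group (4 mice) received control food and the depleted group (4 mice) received food with PLX3397, a small molecule that blocks the receptor CSF1R, each for 9 days. No transgene or mutant allele is named for either group, and each library is 1 mouse. The series asks how microglia act on cerebral blood flow. The channels bear on that question because the response of microglia to ATP and injury depends on their membrane potential and on calcium entry.

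Microglia are the resident macrophages of the brain. Potassium channels hold their membrane at a negative potential, which drives calcium entry and, with the outflow of potassium, acts on process movement and on release of the cytokine IL-1β. The THIK-1 channel, product of Kcnk13, sets the resting potential of microglia, and ATP acting on the P2Y12 receptor adds to its current. Proton channels carry away the charge that the NADPH oxidase moves across the membrane. TRP channels let in calcium and sodium on heat, osmotic, mechanical or oxidative stimuli. Several of these genes are also transcribed in neurons, astrocytes, endothelium or epithelium, and the libraries hold the RNA of all forebrain cells together.

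Libraries held between 48455538 and 68406688 counts. The 12 microglial reference genes, among them Cx3cr1, P2ry12, Tmem119, Fcrls, Siglech, Gpr34, C1qa, C1qb, C1qc, Itgam and Trem2, fell in the depleted group, 12 of 12 by edgeR's quasi-likelihood test. Their mean level on the log2 scale was left at 2.91% of control, between 1.51% and 4.73% in single depleted mice. For Cx3cr1, the fractalkine receptor gene, the control mice had 29.0 to 38.4 CPM (counts scaled to library size with TMM factors) and the depleted mice 0.102 to 0.699 CPM. In bulk tissue fewer cells of a type and less RNA per cell cannot be told apart. Depletion of marker transcripts was thus present in every depleted library, and the channels were read against it.

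None of the 10 channel genes passed the test over all genes. In edgeR's quasi-likelihood test 0 were lower and 0 were higher at an adjusted p (Benjamini-Hochberg over 20140 genes) under 0.05, against 1.11% of all tested genes called lower and 0.0546% called higher. At an unadjusted p under 0.05 there were 4 (Kcnk6, Clic1, Hvcn1 and Kcnj2), beside 11.0% of all genes. DESeq2 called 1 (Kcnk6, lower) and limma-voom 0. The log2 fold changes ran from -0.996 (Hvcn1) to 0.41 (Kcnj2) with a median of -0.08, beside a median of -5.40 for the 12 microglial reference genes and of -3.8e-04 for all genes tested. A negative sign was found for 7 of the 10, against 50.1% of all genes.

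**Figure D1:**
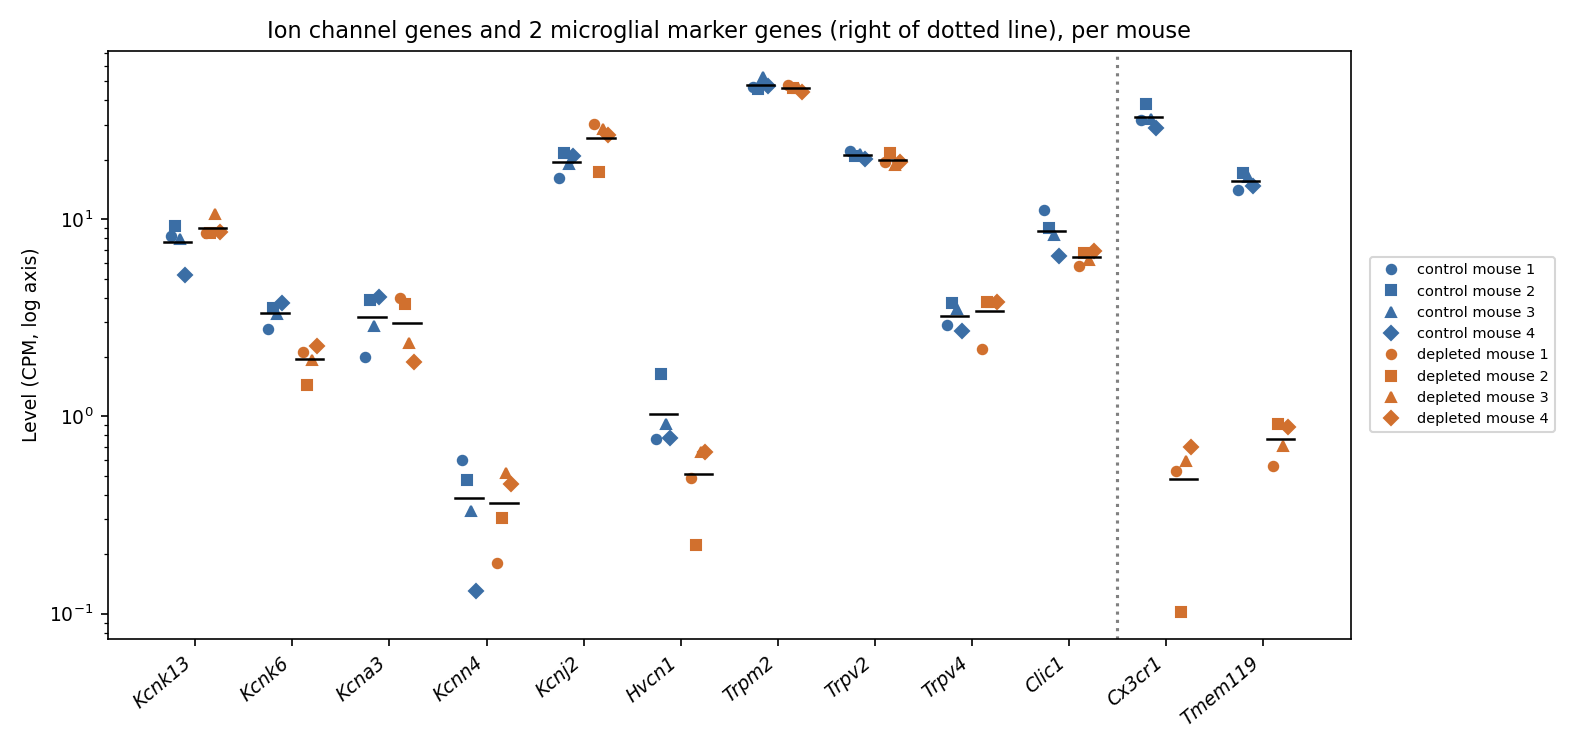
Level of each channel gene, and of the microglial marker genes Cx3cr1 and Tmem119 to the right of the dotted line, in CPM on a log axis; each symbol is 1 mouse and the black bars are group means (4 mice each). The depleted mice lie apart from and below the control mice for Kcnk6 and Hvcn1 among the channels, and by far more for Cx3cr1 (0.102 to 0.699 against 29.0 to 38.4 CPM).

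The 95% intervals of the fit without covariates give its precision for the level of each channel in whole forebrain. The 95% interval of the level left in depleted mice had its lower end at 28.4% of control for Hvcn1, the lowest of the set. For the other channels it was at 44.6% or above. For the 11 reference genes named above the upper end was 11.2% or below. The interval of Hvcn1 (28.4% to 88.7%) and those of the other 9 channels therefore met none of these 11. This separation from every channel held for these 11 and not for the full set of reference genes. The remaining reference gene is not reported singly here. These intervals are not adjusted for the number of genes and hold for that fit alone. With a score of striatal transcripts (below) as a covariate, the log2 fold change was -1.80 (SE 0.33) for Hvcn1 and -1.06 (SE 0.20) for Kcnk6. The Hvcn1 counts may also hold reads of an opposite-strand gene, Tctn1 (below).

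The ratio of each channel to the microglial reference was tested directly. Per mouse, the mean log2 CPM of the 12 reference genes was subtracted from the log2 CPM of the channel. This difference was higher in every depleted mouse than in every control mouse for all 10 channels. The shift ran from 4.11 (Hvcn1) to 5.49 (Kcnj2) on the log2 scale, or 17.2-fold to 44.8-fold, with an exact two-sided permutation p of 0.0286 for each of the 10 comparisons, the smallest that 70 splits allow and not adjusted. For Kcnk13 the difference went from -1.09 ± 0.29 to 4.28 ± 0.69 (SD, n = 4 mice each), a shift of 5.37. The reference genes were chosen with earlier results of these data known. Any gene that did not fall with them would give this same smallest p, so the p-value adds no support. The shifts describe only how far each channel stood from the microglial markers of the same libraries.

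**Figure D2:**
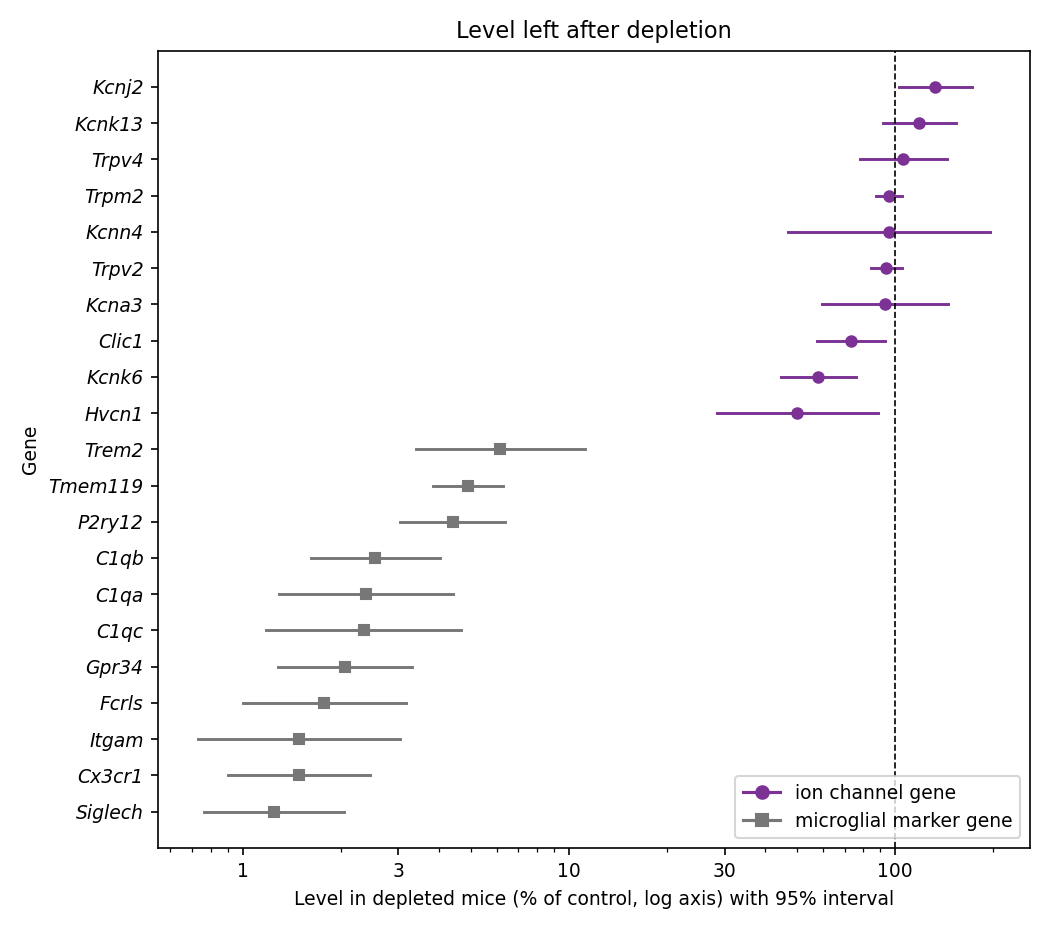
Level in depleted mice as a percentage of control for the 10 channel genes (circles) and 11 microglial reference genes (squares), on a log axis, with 95% intervals of the edgeR fit. The channels lie between 50.2% (Hvcn1) and 133% (Kcnj2), and the 11 reference genes shown between 1.25% (Siglech) and 6.16% (Trem2). The remaining reference gene is not reported singly here, and this range does not cover it.

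The potassium channels come first, beginning with the resting conductance. Kcnk13 (chromosome 12, 99964499 to 100062682, plus strand, mm10) encodes the two-pore domain channel THIK-1. Its level was 8.21, 9.28, 7.92 and 5.23 CPM in control mice 1 to 4, and 8.54, 8.48, 10.7 and 8.61 CPM in depleted mice 1 to 4. The groups overlapped, with control mouse 4 the lowest of all 8 and depleted mouse 3 the highest. Controls averaged 7.66 ± 1.72 CPM and depleted animals 9.07 ± 1.06 CPM (SD, n = 4). The log2 fold change was 0.25 (SE 0.17, 95% interval -0.13 to 0.62, edgeR adjusted p = 0.646). The interval spans 91.5% to 153% of control. It includes no change, and its lower end lies far above the 2.91% left of the microglial markers.

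P2ry12, the receptor gene placed upstream of THIK-1 and also one of the reference genes, fell from 18.5 ± 2.09 to 0.808 ± 0.317 CPM (log2 fold change -4.51, SE 0.24, edgeR adjusted p = 9.49e-06). Per mouse, the log2 ratio of Kcnk13 to P2ry12 went from -1.30 ± 0.33 to 3.50 ± 0.49, a shift of 4.80. This pair, and those of Kcnk6 and Hvcn1 below, were chosen after the values were seen and are given with no test.

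Kcnk6 (chromosome 7, 29221926 to 29232515, minus strand) encodes TWIK-2, the two-pore channel through which potassium leaves macrophages ahead of NLRP3 inflammasome assembly. Control mice had 2.77, 3.56, 3.29 and 3.77 CPM and depleted mice 2.12, 1.44, 1.93 and 2.28 CPM. The 2 groups did not overlap, with depletion on the lower side, as in 3.50% of all genes tested. Means of 3.35 ± 0.431 CPM without and 1.94 ± 0.363 CPM with the drug gave a log2 fold change of -0.78 (SE 0.17, 95% interval -1.17 to -0.40, edgeR adjusted p = 0.0819). The level left was 58.1% of control (44.6% to 75.8%). DESeq2 called Kcnk6 lower at nearly the same size (-0.78, adjusted p = 0.00141), the single one of 18 alternatives that did (adjusted p 0.00141 to 0.251). Nlrp3, the inflammasome sensor gene, fell from 0.770 ± 0.128 to 0.0632 ± 0.00644 CPM (-3.57, SE 0.27, adjusted p = 6.27e-05). The log2 ratio of Kcnk6 to Nlrp3 was higher by 2.22 after depletion. Nlrp3 had only 178 counts over all mice. The prior count of 2 in log2 CPM makes this shift smaller than the 2 fold changes imply.

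Kcna3 (chromosome 3, 107036169 to 107038070, plus strand) encodes the voltage-gated channel Kv1.3, a delayed rectifier of activated microglia and of T cells. The control libraries gave 1.99, 3.89, 2.86 and 4.05 CPM, and the depleted ones 3.99, 3.70, 2.35 and 1.89 CPM. Both groups spread over the same range, with coefficients of variation of 30.1% and 34.2%. The log2 fold change was -0.10 (SE 0.29, 95% interval -0.74 to 0.54, edgeR adjusted p = 0.936), so the interval runs from 59.7% to 146% of control.

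Kcnn4 (chromosome 7, 24370263 to 24386690, plus strand) encodes KCa3.1, opened by intracellular calcium through calmodulin. It was the weakest of the 10 genes, with 33, 23, 18 and 7 counts in control and 10, 15, 36 and 22 counts in depleted mice. At 0.384 ± 0.203 against 0.364 ± 0.151 CPM the groups overlapped fully. The log2 fold change of -0.06 (SE 0.46, edgeR adjusted p = 0.976) has a 95% interval from -1.09 to 0.97, or 46.9% to 196% of control. Markers of T and B cells, which also use Kcna3 and Kcnn4, summed to 2.01 to 16.3 CPM in control and 5.35 to 35.1 CPM in depleted mice over 9 genes, of which 2 had enough counts to be tested and 0 were called. Cd4 made up most of that sum (6.78 and 24.0 CPM), whereas Cd3e stood at 0.125 and 0.0770 CPM. The part of these cells in the 2 channels was not tested.

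Kcnj2 (chromosome 11, 111066164 to 111076821, plus strand) encodes the inward rectifier Kir2.1. The control values were 16.1, 21.7, 19.0 and 20.9 CPM, and the depleted values 30.5, 17.4, 28.7 and 26.7 CPM. Depleted mice 1, 3 and 4 lay above every control mouse and depleted mouse 2 within the control range. The log2 fold change was 0.41 (SE 0.17, 95% interval 0.04 to 0.78, edgeR adjusted p = 0.409), from 19.4 ± 2.48 to 25.8 ± 5.84 CPM. Without depleted mouse 2 it was 0.57 (adjusted p = 0.0254), the single one of 18 alternatives that passed (adjusted p 0.0254 to 1.00).

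The libraries also differed in their content of striatal transcripts. The mean log2 CPM of 9 genes of striatal projection neurons was 4.66, 7.11, 6.49 and 5.69 in control mice 1 to 4, and 7.83, 6.12, 8.12 and 7.74 in depleted mice 1 to 4. The summed level of the list was 342 to 1684 CPM in control and 838 to 3290 CPM in depleted mice, with 0 of 9 genes called. Depleted mouse 2, lowest for Kcnj2 in its group, was also lowest for the striatal score in its group, and control mouse 1 was lowest for both among the controls. With the score as a covariate the log2 fold change of Kcnj2 was 0.02 (SE 0.15, adjusted p = 1.00). The score itself differed between the groups: values of 7.83, 8.12 and 7.74 in depleted mice lay above the highest control value, 7.11. The covariate therefore cannot separate striatal content from depletion. The part of striatal content in the Kcnj2 values was not tested.

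**Figure D3:**
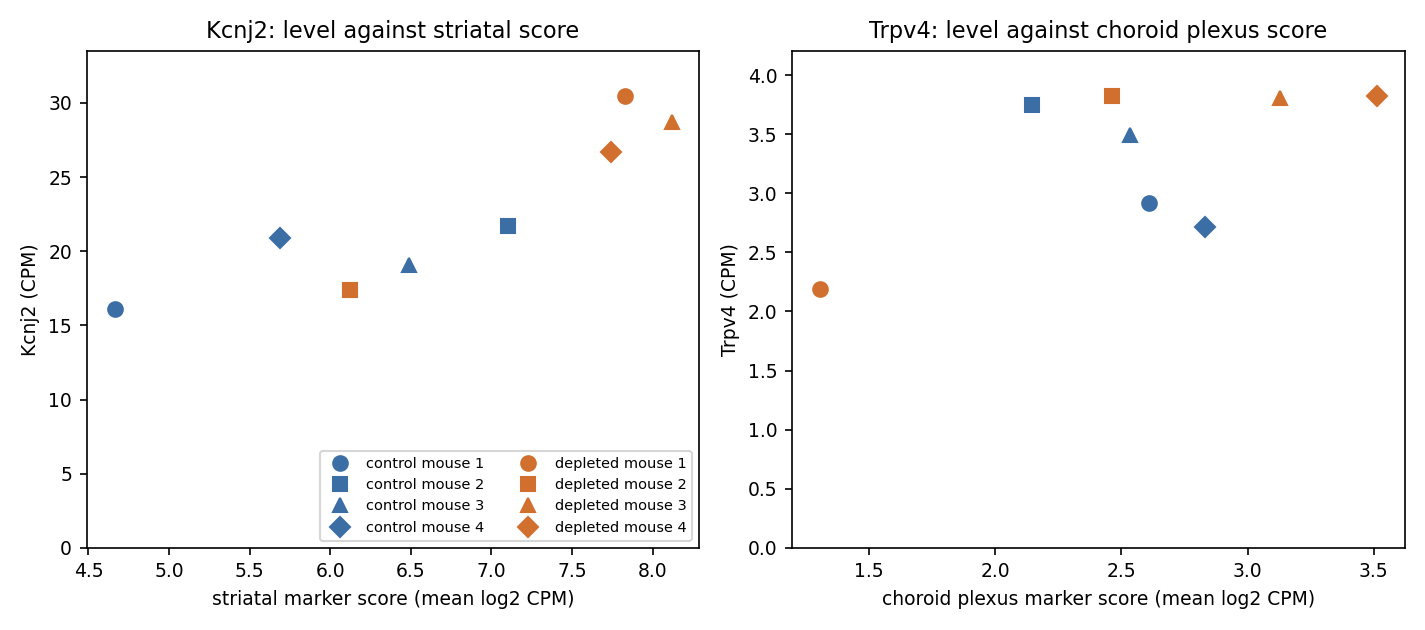
Left, Kcnj2 in CPM against the striatal marker score (mean log2 CPM of 9 genes); right, Trpv4 in CPM against the choroid plexus marker score (mean log2 CPM of 7 genes); each symbol is 1 mouse. The 3 mice with the highest striatal scores (7.74 to 8.12) have the highest Kcnj2 levels (26.7 to 30.5 CPM). Depleted mouse 1 is lowest for both Trpv4 (2.19 CPM) and the choroid plexus score (1.30). Among control mice the order is reversed, with Trpv4 at 3.75 CPM at the lowest score (2.15) and 2.72 CPM at the highest (2.83).

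Hvcn1 (chromosome 5, 122206804 to 122242297, plus strand) encodes the voltage-gated proton channel Hv1, which accompanies the NADPH oxidase in phagocytes. There were 42, 80, 50 and 42 counts in control and 27, 11, 46 and 32 counts in depleted mice. Scaled to depth these were 0.767, 1.65, 0.918 and 0.776 CPM against 0.489, 0.224, 0.663 and 0.658 CPM, with every depleted mouse below every control mouse. It had the most negative fold change of the set, -0.996 (SE 0.37, 95% interval -1.82 to -0.17, edgeR adjusted p = 0.369), leaving 50.2% of control. With the striatal score as a covariate the log2 fold change was -1.80 (adjusted p = 0.0487), the single one of 17 alternatives that passed (adjusted p 0.0487 to 0.620). Exons of Tctn1 on the opposite strand cover 44.2% of the exon bases of Hvcn1, and the strand setting of the counting is not given in the sources used here. Tctn1 was far more abundant (25.6 ± 2.77 and 28.7 ± 4.46 CPM, log2 fold change 0.17, adjusted p = 0.679), so an unknown part of the Hvcn1 counts may be Tctn1 reads.

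The oxidase itself was followed through a list of 12 partner genes that held oxidase subunits, inflammasome genes and purinergic receptors. Of the 11 tested, 6 fell and 0 rose. Besides P2ry12 and Nlrp3, these included the cytosolic oxidase subunits Ncf1 (5.22 ± 0.657 to 0.557 ± 0.193 CPM, -3.21, SE 0.23) and Ncf4 (-3.85, SE 0.50) and the GTPase gene Rac2 (-2.59, SE 0.29), all at an adjusted p of 0.00278 or less. Exons of Gtf2ird2 on the opposite strand cover 11.1% of the exon bases of Ncf1. Cyba, a membrane subunit, stood at -1.01 (SE 0.21, adjusted p = 0.0729) with its groups apart and passed in 3 of 18 alternatives, and Cybb, the catalytic subunit, was weak at 0.228 and 0.203 CPM. The purinergic channel genes P2rx4 (0.12) and P2rx7 (-0.35) did not pass. The log2 ratio of Hvcn1 to Ncf1 was higher by 2.20 after depletion, with the same uncertainty about Tctn1 reads in Hvcn1. Several genes of this partner list thus fell in libraries in which the channel genes did not pass the test. Other genes of the same list did not pass either, among them P2rx4, P2rx7, Cyba and Cybb. Not passing does not show that a gene was unchanged, with Hvcn1 at 50.2% and Kcnk6 at 58.1% of control. The difference between partners and channels as sets was not tested.

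Of the TRP channel genes, Trpm2 and Trpv2 had the smallest spread between control mice of all 10 channels. Trpm2 (chromosome 10, 77907722 to 77970563, minus strand) encodes a calcium-permeable channel opened by ADP-ribose under oxidative stress. It was the most abundant of the 10 by counts, at 46.9, 45.8, 52.3 and 47.1 CPM in control and 47.9, 46.0, 46.1 and 44.3 CPM in depleted mice. The values of the groups interleaved. Its log2 fold change of -0.06 (SE 0.06, edgeR adjusted p = 0.775) has a narrow interval, 87.6% to 105% of control, with coefficients of variation of 6.08% and 3.18%.

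Trpv2 (chromosome 11, 62574486 to 62600515, plus strand) encodes a heat and stretch responsive cation channel present in macrophages. Control mice had 22.3, 21.0, 21.3 and 20.1 CPM and depleted mice 19.6, 21.8, 18.8 and 19.4 CPM. Depleted mouse 2 lay inside the control range and the other 3 below it. The change was -0.09 (SE 0.07, edgeR adjusted p = 0.704), with an interval from 84.4% to 105% of control. For both genes a level under 84.4% of control lay outside the 95% interval.

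Trpv4 (chromosome 5, 114622152 to 114658421, minus strand) encodes an osmotically gated cation channel that astrocytes, endothelium and choroid plexus also use. Levels were 2.92, 3.75, 3.49 and 2.72 CPM in control and 2.19, 3.82, 3.81 and 3.82 CPM in depleted mice. Depleted mouse 1 stood below all others, and the remaining depleted mice above all controls. The log2 fold change was 0.08 (SE 0.20, 95% interval -0.36 to 0.53, edgeR adjusted p = 0.920). The summed level of 7 choroid plexus markers was 84.4 CPM in depleted mouse 1, 458 to 761 CPM in its 3 group mates and 360 to 535 CPM in control mice, with 0 of 7 genes called. Without depleted mouse 1 the log2 fold change of Trpv4 was 0.24 (adjusted p = 0.705), and with the choroid plexus score as a covariate 0.03 (adjusted p = 0.971). Among control mice the order ran the other way. Control mouse 2 had the lowest choroid plexus score (2.15) and the highest Trpv4 level (3.75 CPM). Control mouse 4 had the highest score (2.83) and the lowest Trpv4 level (2.72 CPM). The part of the choroid plexus in the Trpv4 values was not tested.

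Clic1 (chromosome 17, 35049966 to 35058749, plus strand) encodes a redox-sensitive protein that can enter membranes as a chloride channel and has been studied in microglia exposed to amyloid. The control values were 11.2, 9.06, 8.28 and 6.47 CPM and the depleted values 5.78, 6.75, 6.24 and 6.91 CPM. Control mouse 4 lay within the depleted range, and the other controls above it. Controls averaged 8.75 ± 1.95 and depleted animals 6.42 ± 0.511 CPM, or -0.45 on the log2 scale (SE 0.16, 95% interval -0.79 to -0.10, edgeR adjusted p = 0.343), or 73.4% of control. It did not pass in any of 18 alternatives (-0.57 to -0.31, adjusted p 0.107 to 1.00).

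Markers of other cells stood beside the lower values of Kcnk6, Hvcn1 and Clic1. The 7 markers of border-associated macrophages summed to 12.4 to 17.3 CPM in control and 2.99 to 5.80 CPM in depleted mice, and 3 of the 5 tested fell. Stab1 made up most of that sum in control mice (11.7 CPM, and 2.18 CPM after depletion), whereas Cd163 stood at 0.955 and 2.15 CPM and did not pass (edgeR adjusted p = 0.380). Of 5 markers of oligodendrocyte precursors 3 fell, Pdgfra (42.9 to 21.7 CPM), Cspg4 (24.5 to 13.5 CPM) and Matn4 (14.7 to 7.31 CPM). Gpr17 went the other way (50.6 to 76.5 CPM) and Neu4 stayed close (12.4 to 12.7 CPM), neither of them called. The precursor list summed to 132 to 157 CPM in control and 114 to 146 CPM in depleted mice. The 7 markers of neutrophils and monocytes summed to 0.365 to 1.32 CPM in control and 0.226 to 0.634 CPM in depleted mice, all below the test's count filter. Their part in the channel values was not tested.

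Levels between genes were compared per length, as CPM per kilobase of annotated exon. In control mice the order was Clic1 (4.86 ± 1.08), Trpv2 (4.72 ± 0.20), Trpm2 (3.85 ± 0.23), Kcnj2 (3.57 ± 0.46), Kcnk13 (2.46 ± 0.55), Kcna3 (1.68 ± 0.51), Kcnk6 (0.807 ± 0.104), Trpv4 (0.790 ± 0.118), Hvcn1 (0.288 ± 0.118) and Kcnn4 (0.0751 ± 0.0396; SD, n = 4 mice). The ranges over mice overlapped between Clic1 and Trpv2, Trpm2 and Kcnj2, Kcnj2 and Kcnk13, Kcnk13 and Kcna3, and Kcnk6 and Trpv4, so those neighbours were not separated by their spread. In depleted mice Kcnj2 was first (4.74 ± 1.07) and Clic1 came after Trpv2 and Trpm2 (3.57 ± 0.28), while Hvcn1 and Kcnn4 stayed last. The depleted range of Kcnj2 (3.19 to 5.60) took in those of Trpv2, Trpm2 and Clic1, and Clic1 (3.21 to 3.84) overlapped Trpm2 (3.56 to 3.84), so the places of Kcnj2 and Clic1 in this order were not separated by their spread. The weakest 2 channels also varied most between control mice, with coefficients of variation of 40.8% and 52.8%.

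Set within their families, the channels studied in microglia were mostly minor transcripts of the forebrain. Kcnk13 ranked 5 of 10 and Kcnk6 8 of 10 tested two-pore channels per length in control mice, at 8.01% and 2.62% of the level of Kcnk1. Kcna3 was the last of 6 Kv1 genes, at 9.09% of Kcna2, and Kcnj2 ranked 7 of 13 inward rectifiers, at 6.84% of Kcnj4. Kcnn4 was the last of 5 calcium-activated channels, at 0.492% of Kcnma1. Trpv2, in contrast, was first of 5 TRPV genes, Trpm2 second of 8 TRPM genes after Trpm7, and Clic1 second of 5 CLIC genes after Clic4. These rankings describe the forebrain as a whole and not microglia.

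Relatives were counted in the same fit. Of 52 listed, 43 had enough counts, and 0 passed in edgeR, 0 in DESeq2 and 0 in limma-voom, with 5 at an unadjusted edgeR p under 0.05. Their median log2 fold change was -0.0056, beside -0.08 for the 10 channels. In 1 of the 43, Clic4, an intracellular chloride channel protein of endothelium, the depleted mice lay above all control mice (82.4 ± 12.95 to 113 ± 17.1 CPM, 0.46, SE 0.13, adjusted p = 0.237), as in 2.28% of all genes. Depleted mice lay below all controls in 0 of the 43 relatives and in 2 of the 10 channels (Kcnk6 and Hvcn1), beside 3.50% of all genes, and the difference between these counts was not tested.

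Family by family, the smallest p-values belonged to these relatives, none past the threshold. Among two-pore channels they were the stretch-sensitive Kcnk2 (0.46, adjusted p = 0.293) and Kcnk12, the THIK-2 gene (-0.27, adjusted p = 0.536), the closest relative of Kcnk13. The tested Kv1 relatives of Kcna3 all had positive values (5 of 5, median 0.30; Kcna3 itself -0.10), led by Kcna4 (0.30, adjusted p = 0.468) and Kcna5 (0.73, adjusted p = 0.498). Among inward rectifiers these were the glial Kcnj16 (-0.37, adjusted p = 0.278) and Kcnj4 (0.27, adjusted p = 0.505), and among calcium-activated channels Kcnn2 (-0.34, adjusted p = 0.332) and Kcnma1 (-0.12, adjusted p = 0.823). Trpm8 (-0.84, SE 0.66) and Trpm1 (-0.33, SE 0.26) led the TRPM genes and Trpv1 (-1.29, SE 0.65) and Trpv3 (0.07, SE 0.15) the TRPV genes. Trpm8, Trpm1 and Trpv1 were all weak, under 0.6 CPM in control mice. Clic6, which is also a choroid plexus marker, stood at 0.78 (SE 0.33, adjusted p = 0.424).

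**Figure D4:**
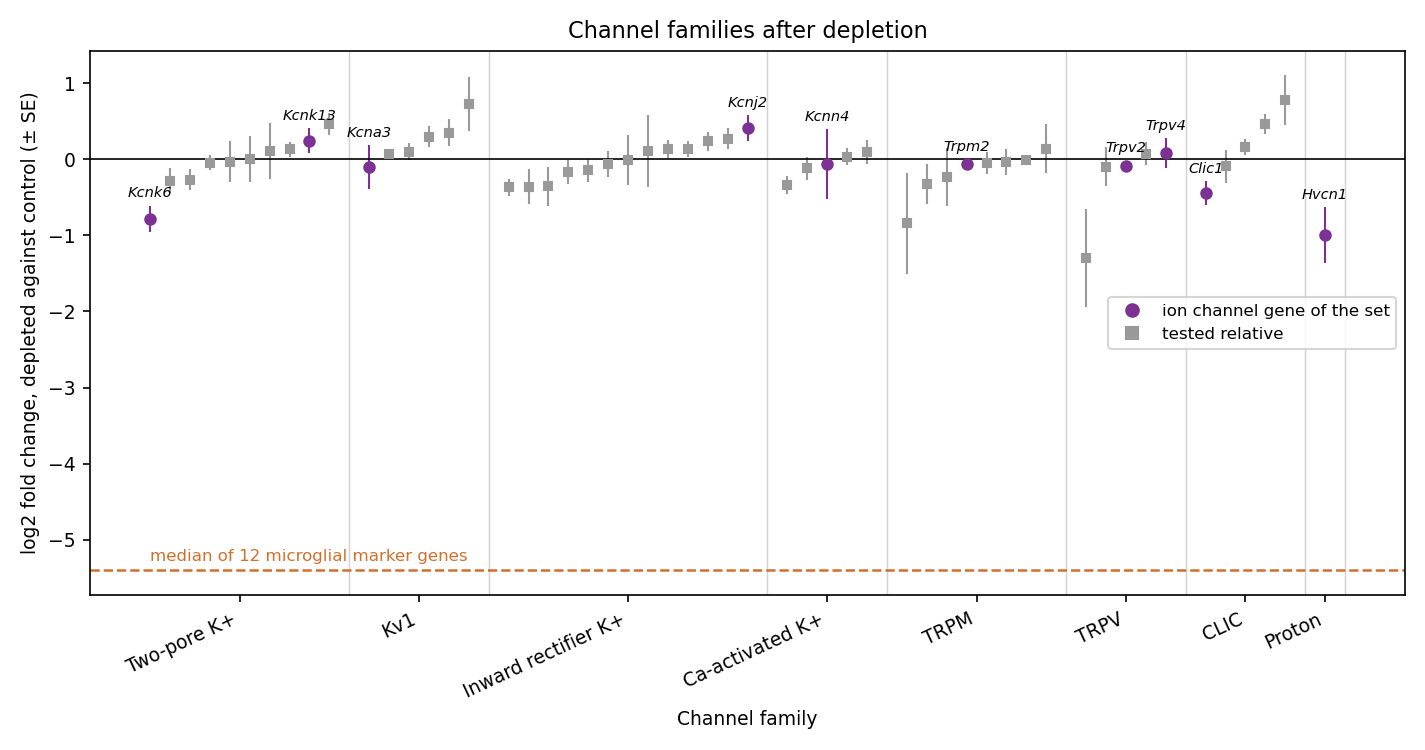
Log2 fold change (depleted against control, ± SE of the edgeR fit) of the 10 channel genes (circles, named) and their 43 tested relatives (squares), grouped by family and sorted within each. The dashed line is the median of the 12 microglial reference genes (-5.40), and all channels and relatives lie above it, the lowest at -1.29 (Trpv1).

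Further channels that have been studied in microglia outside these families gave no call either. Of 18 listed, 17 were tested and 0 passed in edgeR, DESeq2 or limma-voom, with 4 at an unadjusted edgeR p under 0.05 and a median log2 fold change of 0.0012. The mechanosensitive channel gene Piezo1 stood at -0.53 (SE 0.18, adjusted p = 0.317), with 24.6% of its exon bases shared with Ctu2 on the opposite strand. The Kv1 beta subunit genes, partners of Kcna3, gave 0 of 3 calls in edgeR and in limma-voom and 1 in DESeq2 (Kcnab1, higher). Kcnab1 went from 105 ± 18.6 to 166 ± 44.1 CPM (0.67, SE 0.20, edgeR adjusted p = 0.258) and Kcnab2 stood at -0.17.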

How the data were processed

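Forebrain RNA of 8 mice was compared, 4 per group by sample title. The deposited table holds raw whole-number counts by gene symbol, with 1 column per mouse. The submitters' processing notes name build mm10, the aligner STAR, the read reports FastQC and MultiQC, and the packages DESeq and DESeq2; versions, annotation, counter and strand setting: not given in the sources used here. Depth was 48455538 to 68406688 counts per mouse. No 2 libraries of a group agreed within sampling noise (chi-square per gene at least 12.3). Genes were filtered (filterByExpr, 20140 kept), scaled by TMM and tested with edgeR 4.0.16 in R 4.3.3 without covariates; p-values were adjusted by Benjamini-Hochberg across the whole tested set, threshold 0.05. Standard errors and 95% intervals come from each fold change and the F value of its test. Log2 CPM used a prior count of 2. Coordinates, exon lengths and overlaps are from GENCODE M21 (same build; 93.3% of symbols and 10 of 10 channels matched). The channels, marker lists and relatives were chosen with earlier results of these data known. Named genes were all channels, in each channel or partner list the genes past the threshold or the 2 with the smallest p, and for channels past the threshold their nearest genes (none qualified); 3 genes of these lists are counted but not reported singly here. Alternatives were DESeq2 1.42.0, limma-voom (limma 3.58.1), other scalings and filters, the replicate block, covariates and leaving out each mouse. The choroid plexus score as a covariate and the 3 ratios of a channel to a partner gene were added after seeing the data. Steps were tested on simulated data.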

Additional observations from a re-analysis of the deposited data

Results flagged for a closer look

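Among 20 sets of 4 mice (10 channels in 2 groups), 2 held a mouse far from the other 3, where chance gives about 1 in 20. Kcnk13 was 10.7 CPM in depleted mouse 3, the rest of its group being at 8.48 to 8.61 CPM. Trpv4 was 2.19 CPM in depleted mouse 1, the rest of its group being at 3.81 to 3.82 CPM. That library also had the lowest choroid plexus score, though among control mice Trpv4 was lower where the score was higher.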

How the results depend on the processing

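The count of channels called lower, 0 in edgeR, was 1 with DESeq2 (Kcnk6) and 1 with the striatum score as a covariate (Hvcn1), and 0 without any 1 mouse. The count called higher was 0 to 1 when single mice were left out, the 1 being Kcnj2 without depleted mouse 2. Over all genes, the 223 lower calls became 351 with DESeq2 and 178 to 441 without 1 mouse. The 11 higher calls became 25 with no filter, 6 with at least 1 CPM in 4 samples, 128 with DESeq2 (73.3% of calls lower, against 95.3%), 4 with the replicate block, 2 with the striatum score and 2 to 243 without 1 mouse (2 without depleted mouse 3, 243 without depleted mouse 2). The shift of the channels against the microglial reference was 3.31 to 5.70 on the log2 scale over 11 alternatives; its exact permutation p was at the smallest possible value in each and so says nothing on stability. The sign of Kcnk13, Kcnj2 and Trpv4 stayed positive and that of Kcnk6, Hvcn1, Trpm2, Trpv2 and Clic1 negative in every alternative, while Kcna3 and Kcnn4, both near 0, had both signs. The stricter filter removed Hvcn1 and Kcnn4. Mouse numbers pair no samples: deviations of same-numbered mice correlated at -0.22, -0.17, 0.37 and -0.01, and the block left 161 lower genes and no channel called. The 2 weakest channels had 330 and 164 counts in all, which limits their precision beside the spread between mice; the causes of these differences were not tested.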

Other observations

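Hcrt, the orexin precursor gene of the hypothalamus, had 1249 to 2081 counts in control mice 2 and 3 and depleted mice 2 and 3, and 4 to 12 counts in the other 4. The channels were set side by side within these samples, 2 mice against 2, with no test. Kcnk13 was at 111% of control in the libraries with Hcrt and at 128% in those without. Kcnk6 was at 49.3% and 67.3%, Hvcn1 at 34.6% and 74.3%, Clic1 at 74.9% and 71.9%, and Kcnj2 at 113% and 154%. Trpm2 (93.9% and 98.1%) and Trpv2 (96.1% and 92.1%) were near the control level in both.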
